A study of Mus musculus with 5 samples.

Results

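The replication-dependent histone genes of the mouse were described by the positions of CTCF peaks in and around their clusters. Members were chosen from the RefSeq table of GRCm38.p6, the assembly behind mm10, by symbol (H1f1 to H1f6, and H2ac, H2bc, H3c or H4c with a number) or by an older Hist1, Hist2 or Hist3 name, on chromosomes 13, 3 and 11. This gave 69 genes of the 49603 genes placed on chromosomes 1 to 19, X and Y, and 66 of the 69 are protein-coding. The pseudogenes are H2ac14, H2bu1-ps and H2af-ps2. By their symbols 18 members are H2ac genes, 16 H2bc, 12 H3c, 12 H4c and 6 H1f genes, and 5 were taken in by an older name (H2bu2, H2bu1-ps, H2aw, H2af-ps2, and H4bc24, whose older name Hist1h2br is that of an H2B gene). H3f4 and H2ac5-ps lie beside members but match neither part of the rule, and were left out.

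The peaks come from CTCF ChIP-seq in NIH3T3, an established line of mouse embryo fibroblasts. All libraries came from cells stably carrying H2B-mCherry, the rtTA3G transactivator and a TRE3G-controlled, doxycycline-inducible CDX2 gene. CDX2 is a homeodomain regulator of gut and trophoblast cells. The groups are CTCF libraries with doxycycline for 6 h (2), labelled as 500 ng/µL, CTCF libraries without it (2), and an input library without it (1). The labels do not say whether the line is a clone. The values are 1 list of 22755 intervals on these chromosomes that merges both conditions, with no height, score or sample, so doxycycline was not compared with no doxycycline, and depth and replicate spread are unknown. No test was made on the members: counts and distances are descriptions beside the same over all genes, all peaks or all windows. The intervals given are exact 95% binomial intervals and cover counting only, and neighbouring genes share peaks. With no expression values, the cell type could not be checked against markers.

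Replication-dependent histone genes supply the core histones H2A, H2B, H3 and H4 and the linker histone H1 during S phase. They are short, mostly lack introns, and give mRNAs that end in a stem-loop in place of a poly(A) tail. Many copies lie side by side, and in the nucleus the clusters gather in histone locus bodies with the co-activator NPAT. CTCF is a zinc finger protein that binds insulators and the anchors of chromatin loops, often at the edges of gene clusters.

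Members separated by at most 200 kb were taken as 1 cluster, which gave 4 clusters with 68 of the 69 members. The first Hist1 cluster, on chromosome 13 from 21715711 to 22043658, spans 328 kb from H2bc13 to H2bc11 with 24 members. The second Hist1 cluster, on chromosome 13 from 23531044 to 23934913, spans 404 kb from H4c8 to H2ac1 with 31 members. The Hist2 cluster on chromosome 3 spans 50.3 kb, 96219885 to 96270192, from H2ac21 to H2bc18 with 10 members. The Hist3 cluster on chromosome 11 spans 6.28 kb, 58948911 to 58955192, with the 3 members H2bu2, H2bu1-ps and H2aw. H2af-ps2, at 51200084 to 51203066 on chromosome 13, stands alone, 221.8 kb from the nearest peak midpoint. Both Hist1 clusters are broken by wider gaps: between H4bc24 and H2ac12 lie 197.6 kb, just under the limit, and between H1f1 and H2bc1 lie 169.3 kb. With gaps of at most 50 kb the members form 7 denser runs.

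**Figure D1:**
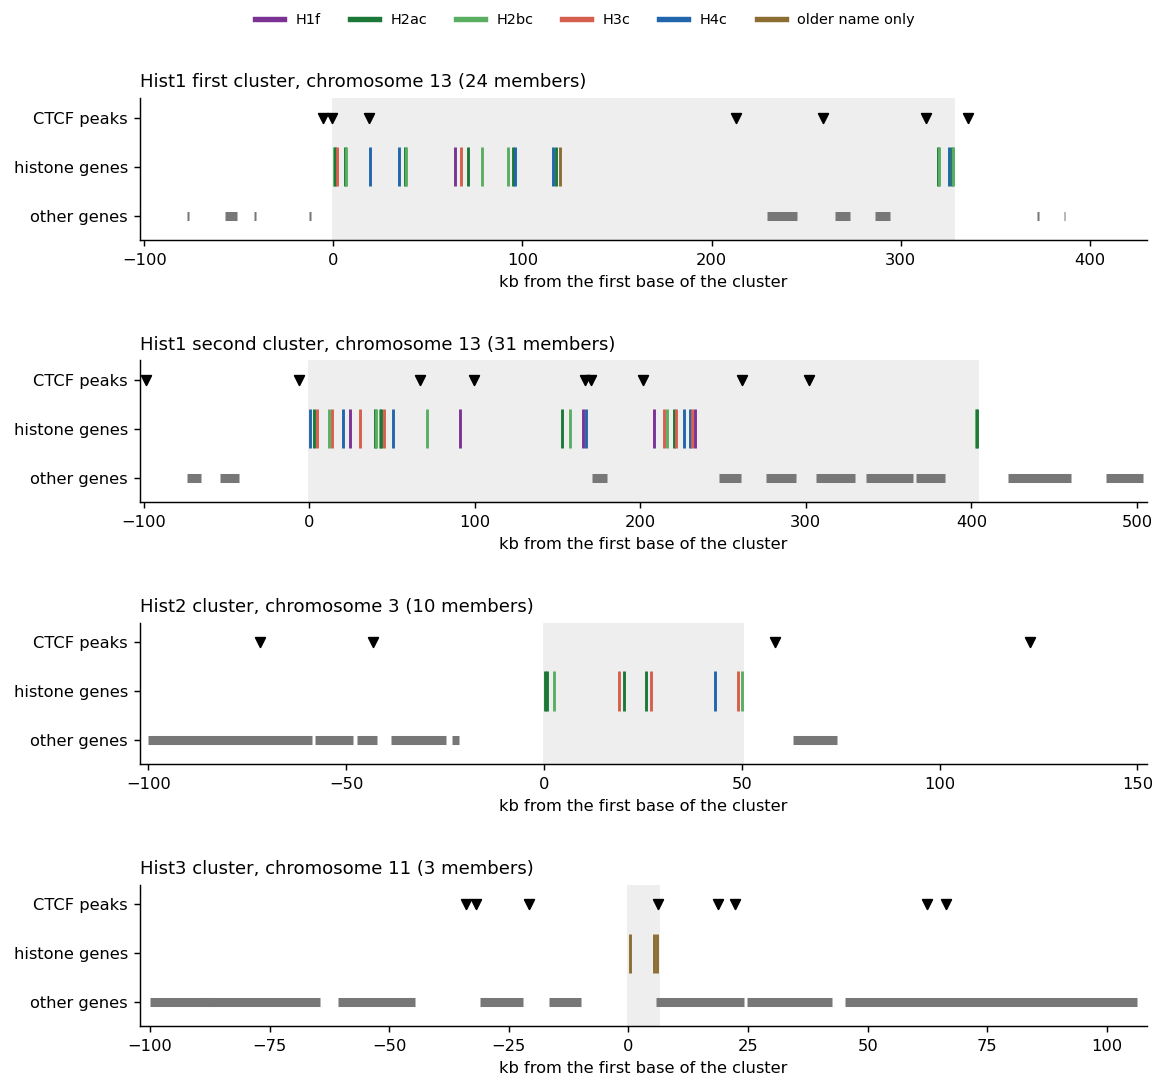
Positions of CTCF peaks (triangles), histone genes (ticks, coloured by family) and other protein-coding genes (grey bars) along the 4 clusters, in kb from the first base of each cluster; the shaded span is the cluster and 100 kb is shown on each side. The Hist2 cluster holds 0 peaks, and the first Hist1 cluster has a peak 756 bp outside its first gene.

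Of the members, 5 had a peak midpoint within 1 kb of either end of the gene, shown here with the promoters they stand nearest to. RefSeq promoter windows (GRCm38.p6) were matched for 61 of the 69 members, and no window overlapped any of the 28 peaks in the clusters and their 100 kb flanks. The 250 bases before the start are printed for the 4 such members with a window (H2aw, H2bc13, H4c11 and H4c3). H4c4 and H2bc12, picked after their values were seen, stand beside them as an H4 and an H2B gene without a peak at an end. Capitals mark CCAAT and TATAAA, read on either strand.
H2aw: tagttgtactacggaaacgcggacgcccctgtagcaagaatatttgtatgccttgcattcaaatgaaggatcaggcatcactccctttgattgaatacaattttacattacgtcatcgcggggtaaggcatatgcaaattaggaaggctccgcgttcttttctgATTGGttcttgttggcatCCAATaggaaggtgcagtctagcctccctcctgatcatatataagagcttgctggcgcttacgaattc
H2bc13: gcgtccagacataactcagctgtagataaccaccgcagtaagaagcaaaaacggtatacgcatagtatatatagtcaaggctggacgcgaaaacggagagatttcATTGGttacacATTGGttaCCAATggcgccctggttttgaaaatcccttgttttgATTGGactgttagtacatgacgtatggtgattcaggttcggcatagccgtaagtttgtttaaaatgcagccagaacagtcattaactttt
H4c11: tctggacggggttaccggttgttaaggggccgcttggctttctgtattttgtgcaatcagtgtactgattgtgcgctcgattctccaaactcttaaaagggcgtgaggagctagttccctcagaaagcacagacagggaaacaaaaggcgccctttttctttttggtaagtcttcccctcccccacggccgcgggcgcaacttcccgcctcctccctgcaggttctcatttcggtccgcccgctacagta
H4c3: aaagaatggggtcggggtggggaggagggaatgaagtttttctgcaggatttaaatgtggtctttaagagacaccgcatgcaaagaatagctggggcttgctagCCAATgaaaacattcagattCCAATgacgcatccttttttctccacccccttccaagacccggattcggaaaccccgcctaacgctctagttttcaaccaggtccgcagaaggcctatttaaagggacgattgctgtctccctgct
H4c4: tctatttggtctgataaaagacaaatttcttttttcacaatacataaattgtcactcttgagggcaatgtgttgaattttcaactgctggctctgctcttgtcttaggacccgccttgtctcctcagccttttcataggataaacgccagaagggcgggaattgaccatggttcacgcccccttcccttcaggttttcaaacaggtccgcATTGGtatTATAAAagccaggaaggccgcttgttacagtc
H2bc12: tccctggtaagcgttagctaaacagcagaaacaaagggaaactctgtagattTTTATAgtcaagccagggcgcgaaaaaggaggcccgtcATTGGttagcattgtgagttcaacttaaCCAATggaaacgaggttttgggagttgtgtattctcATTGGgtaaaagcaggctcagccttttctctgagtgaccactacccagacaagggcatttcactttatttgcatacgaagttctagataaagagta

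The window of H2aw (chr11:58954435-58954684, plus strand) lay 193 bp from the edge of the nearest peak, the closest of the 6. The window of H4c11 (chr13:21734784-21735033, plus strand) lay 360 bp from a peak, that of H4c3 (chr13:23698459-23698708, minus strand) 793 bp, and that of H2bc13 (chr13:21716184-21716433, minus strand) 1116 bp. The windows of H2bc12 (chr13:22035571-22035820, plus strand) and H4c4 (chr13:23581318-23581567, plus strand) were 6631 and 16509 bp away. A core of the CTCF motif (CC, 3 bases of any kind, AGG, 1 base of any kind and GGC) was searched on both strands in the 250 bases before the start. It was found in 0 of 62 member windows, against 2.93% of 32851 windows of the whole table. At that share few of 62 windows would hold it, so the 0 of 62 tells little about these promoters.

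CCAAT, the letters bound by NF-Y at many promoters, stood in 52 of the 62 member windows, or 83.9%, against 33.8% of all windows. It was present in 38 of 38 windows of H1f, H2ac and H2bc genes, in 8 of 10 of H3c genes and in 3 of 11 of H4c genes. TATAAA stood in 29 of 62, or 46.8%, against 12.4% of all windows. Windows of a divergent H2A and H2B gene overlap on the genome, so the same letters can count for both.

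Peaks at the ends of members were about as frequent as over all genes. The 5 members with such an end peak make 7.25% (2.39 to 16.1%), against 8.3% of all genes. Since 62 of the 69 members are 1 kb or shorter, the share among all genes of that length is a yardstick closer in length. It was 3.13%, lower than in the members but also within their interval. Only 1566 of those 12324 short genes are protein-coding, against 66 of the 69 members, so here and below they are not matched in kind of gene. The counts were 2 of 12 H4c genes (H4c11 and H4c3), 1 of 16 H2bc genes (H2bc13), and 0 of 18 H2ac, 0 of 12 H3c and 0 of 6 H1f genes. H2aw and H2bu1-ps make up the 5, and both counts rest on the same peak.

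H4c11, 1 of the genes for the core histone H4, lies on chromosome 13 at 21735034 to 21735456. Its peak, 177 bp wide at 21734248 to 21734424, had its midpoint 698 bp before the annotated start. H4c3, another H4 gene, lies at 23698084 to 23698458, and a peak of 193 bp at 23697474 to 23697666 lay 514 bp past its 3′ end, 888 bp from its start. H2bc13, which encodes an H2B, is the outermost gene of the first Hist1 cluster at 21715711 to 21716183. Its peak, 226 bp at 21714843 to 21715068, lay 756 bp past its 3′ end and outside the cluster. The 2 H4 genes have their peaks on opposite sides, upstream of H4c11 and downstream of H4c3.

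A peak midpoint lay within the body of 2 members, 2.90% (0.353 to 10.1%), against 17.2% of all genes and 0.552% of genes of 1 kb or less. H2aw, an H2A gene of 508 bp at 58954685 to 58955192, held a peak of 230 bp at 58954877 to 58955106, with its midpoint 306 bp after the start. The same peak lies in the body of Trim17, a tripartite motif gene annotated over H2aw, and 479 bp from the pseudogene H2bu1-ps. H2bc6 is annotated over 37455 bp at 23583670 to 23621124, far longer than most members. It held a peak of 255 bp at 23598076 to 23598330, whose midpoint was 12233 bp from the nearest annotated start of the gene.

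Within the body or 10 kb of it, 24 members had a peak, 34.8% (23.7 to 47.2%), against 36.2% of all genes and 17.6% of genes of 1 kb or less. These were 11 of 24 members of the first Hist1 cluster, 8 of 31 of the second, 2 of 10 of Hist2 and 3 of 3 of Hist3. The share among all genes was 27.4% on chromosome 13, 34.9% on chromosome 3 and 59.7% on chromosome 11. By family the counts were 7 of 16 H2bc, 5 of 18 H2ac, 4 of 12 H4c, 3 of 6 H1f and 2 of 12 H3c genes. The H1f genes with a peak were H1f4, 8277 bp away, H1f2, 6149 bp away, and the testis-specific H1f6, 1025 bp away. The H3c genes were H3c10, 2673 bp away, and H3c13, 9200 bp away.

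The distance from a clustered member to the nearest peak midpoint had a median of 19.1 kb, with quartiles of 7.36 and 36.4 kb and a maximum of 101.2 kb. Over all genes the median was 24.9 kb, with quartiles of 2.89 and 109.2 kb, and over protein-coding genes it was 9.41 kb, nearer than in the members. Over genes of 1 kb or less it was 63.3 kb, and over protein-coding genes of that length 206.2 kb. The medians were 17.4 kb in the first Hist1 cluster, 19.2 kb in the second, 35.1 kb in Hist2 and 0.479 kb in Hist3. By family they ran from 16.02 kb for H4c genes and 16.07 kb for H2bc genes over 18.3 kb for H1f and 20.8 kb for H3c to 25.1 kb for H2ac genes, and the ranges of these families overlapped. H2ac1 and H2bc1, the testis-specific H2A and H2B genes at the end of the second cluster, were farthest from a peak, at 101.2 and 100.5 kb. H4c18, H2ac24 and H4bc24 followed at 96.6, 95.3 and 91.2 kb.

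**Figure D2:**
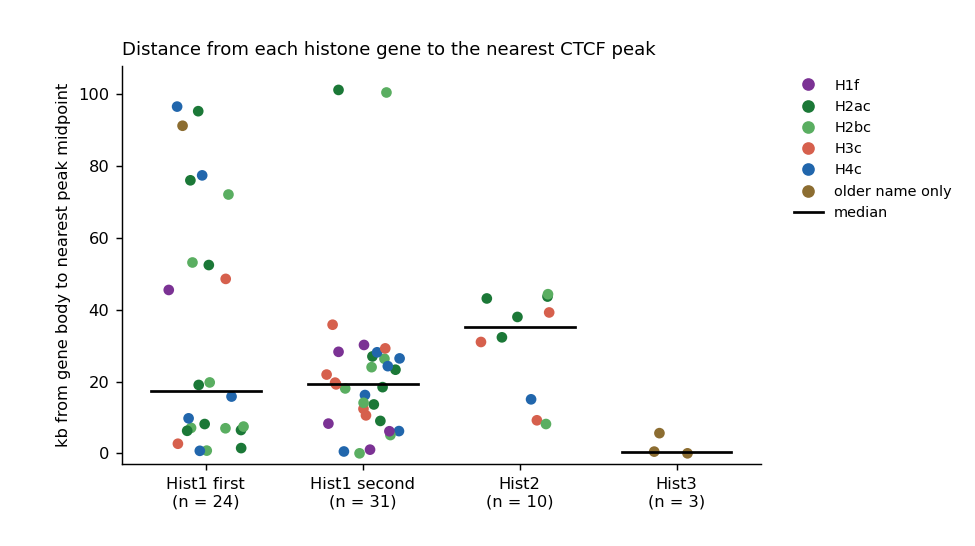
Distance in kb from the body of each clustered histone gene to the nearest CTCF peak midpoint, by cluster and coloured by family; bars mark the medians of 17.4, 19.2, 35.1 and 0.479 kb. In the first Hist1 cluster the genes split between those within 20 kb of a peak and those beyond 45 kb, and 2 genes of the second cluster lie beyond 100 kb.

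At several cluster borders a peak stood close outside. Counted outward from the 8 borders, the nearest peak lay within 10 kb at 4, against 20.1% of both ends of protein-coding genes, where the same outward distance had a median of 46.0 kb. The median of the 8 borders was 10.2 kb. With only 8 borders, the 4 of 8 is a loose estimate, and its difference from 20.1% was not tested. The nearest tRNA gene lay 3890 bp from the peak outside H2bc13, 340 bp from that outside H2bc11 and 1605 bp from that outside H4c8. For the peak outside H2bc18 it lay 43.7 kb away. The first Hist1 cluster was flanked closely on both sides, with a peak midpoint 756 bp beyond H2bc13 and another 7449 bp beyond H2bc11, 287 bp wide at 22050964 to 22051250. The second Hist1 cluster had a peak 6193 bp beyond H4c8, 205 bp wide at 23524749 to 23524953, and none for 178.2 kb beyond H2ac1. Cluster borders are drawn at the outermost histone gene, so this last one lies past a gene pair that stands far from the rest.

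The Hist2 cluster had a peak 8163 bp beyond H2bc18, between it and Fcgr1, the gene for the high-affinity Fc gamma receptor. This peak, at 96278019 to 96278691, was 673 bp wide, the widest of the 28 in the clusters and flanks. On the other side of Hist2 the first peak lay 43.1 kb beyond H2ac21, in the body of Sf3b4, a splicing factor gene, at 96176648 to 96176864. The Hist3 borders had their first outward peaks at 20.7 kb, 58927975 to 58928408, and at 12.3 kb, 58967412 to 58967625. In the left flank of Hist3 a pair of peaks, at 58914772 to 58915037 and 58916709 to 58917228, lay 34.0 and 31.9 kb out, before Btnl10. In its right flank a peak at 58970965 to 58971251 lay in Trim17. The outer peaks of Hist2 were at 96148084 to 96148269 in Otud7b, a deubiquitinase gene 71.7 kb out, and at 96342720 to 96342907, 72.6 kb out and 1586 bp from the tRNA gene n-TQctg5. The second peak outside H2bc13, at 21710012 to 21710281, lay 5565 bp out, between it and the olfactory receptor gene Olfr1359, and that at 23432586 to 23432870, 98.3 kb before H4c8, lay 8862 bp from Abt1. The borders of the 7 denser runs gave 6 of 14 with a peak within 10 kb.

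The density outside was highest next to the borders, but the distance zones draw on different clusters. In the first 10 kb outside the 8 borders lay 5 peaks, or 6.25 per 100 kb, from 10 to 25 kb 3 peaks (2.50 per 100 kb), from 25 to 50 kb 3 peaks (1.50) and from 50 to 100 kb 5 peaks (1.25). The 5 nearest peaks lay at Hist1 and Hist2 borders, 2 of them outside H2bc13, and the 3 from 10 to 25 kb all lay beside Hist3. Ends of protein-coding genes in general had an outward peak within 10 kb at 20.1%, so a zone next to genes is not matched by the density of all chromosomes. Inside the clusters 12 peaks lay in 788 kb, 1.52 per 100 kb. Over the whole 100 kb flanks the density was 2.00 per 100 kb from 16 peaks in 800 kb, 1.31 times that inside, with an interval of 0.583 to 3.04 that includes 1. The ratio was 0.832 (0.227 to 2.60) for both Hist1 clusters, with 5 peaks in the flanks and 11 inside, and 1.07 (0.391 to 2.83) without Hist3, whose flanks held 7 of the 16 peaks. The ratio depended on the peaks and spans taken. With peaks of the median width or more it was 9.86 (1.40 to 427.7), from 10 flank peaks, most of them beside Hist3, and 1 inside. With 1 span per chromosome, which counts the stretch between both Hist1 clusters as inside, it was 2.90 (1.30 to 6.34), from 13 and 17 peaks. The density of all chromosomes was 0.855 per 100 kb, that of chromosome 13 was 0.592, of chromosome 3 0.665 and of chromosome 11 2.13, and 38.9% of all 100 kb windows held a peak.

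**Figure D3:**
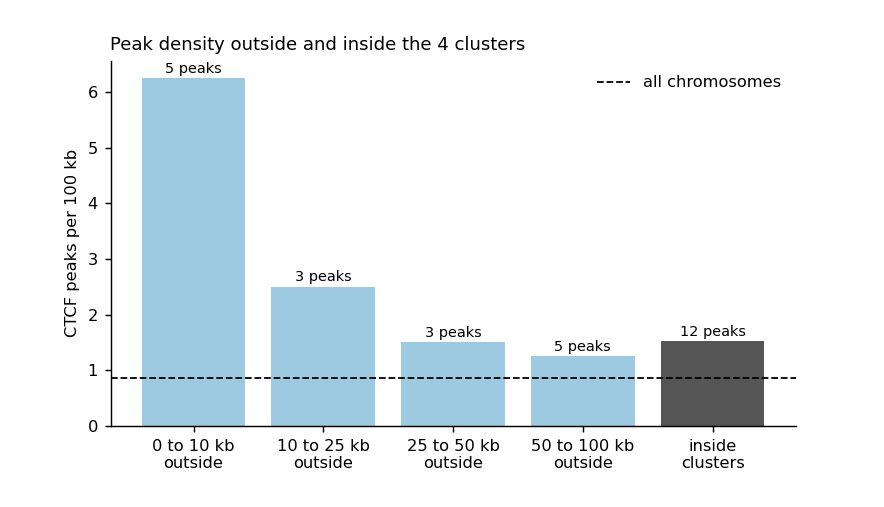
CTCF peaks per 100 kb in 4 distance zones outside the 8 cluster borders and inside the 4 clusters, with the number of peaks on each bar; the dashed line is the density of all chromosomes (0.855). The first 10 kb outside stand highest at 6.25 per 100 kb, from 5 peaks, against 1.52 inside, and the zones draw on different clusters.

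Inside the clusters the peaks stood both within and between the denser runs of histone genes. Of the 12 inside peaks, 6 lay within a run of members with gaps of at most 50 kb and 6 in the wider gaps between runs. Among those in the gaps, the peak at 21928658 to 21928856 lay 16.3 kb before Zfp184, that at 23630742 to 23630928 lay 8277 bp beyond H1f4, and that at 23833137 to 23833333 lay 3687 bp before Slc17a3. Of the 7 runs, 3 held no peak: the 5 genes from H2ac12 to H2bc11, the testis-specific pair H2bc1 and H2ac1, and the 10 genes of Hist2. These runs span 8.54, 1.19 and 50.3 kb in that order. Only 38.9% of all 100 kb windows held a peak, so most spans longer than these runs held none either. Between neighbouring protein-coding genes, a peak stood between 3 of 58 pairs of histone members, 5.17%, against 32.1% of all neighbouring pairs. The histone pairs are much closer, with a median gap of 1.62 kb against 17.6 kb. Among pairs under 20 kb apart the counts were 2 of 56, 3.57%, against 17.6% of all such pairs, with median gaps of 1.41 and 5.57 kb. The 3 pairs were H2bc14 and H4c11, H1f4 and H2ac6, and H1f6 and H4c3. Between a member and another protein-coding gene a peak stood at 8 of 15 pairs, 53.3%, whose median gap was 18.5 kb.

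H2A and H2B genes often lie head to head and share the DNA between their starts. The strand of both was known for 10 such divergent pairs, H4bc24 taken as an H2B gene by its older name, with gaps of 163 to 280 bp, and a peak midpoint lay between the genes at 0 of 10. At the 0.855 peaks per 100 kb of all chromosomes, gaps this short seldom hold a midpoint, so the 0 of 10 tells little about these pairs. Among members with known strand and no other protein-coding gene between them, peaks stood between 0 of 13 divergent, 2 of 21 same-strand and 1 of 13 convergent neighbours. The median gaps were 234, 1115 and 4850 bp in that order, so orientation and distance cannot be told apart.

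The peaks divided the first Hist1 cluster into 5 intervals. The first, 19.4 kb between the peaks at H2bc13 and H4c11, held the 5 genes from H2bc13 to H2bc14. The next, from 21734248 to 21928856, ran for 194.4 kb between midpoints and held 14 members, from H4c11 to H4bc24, with 15 tRNA genes and no other protein-coding gene. Intervals at least as long made up 12.5% of the 22734 between neighbouring peaks of the list. Intervals picked because they hold members tend to be long, and chromosome 13 has fewer peaks per 100 kb (0.592) than all chromosomes (0.855). Such shares, here and below, therefore do not show that an interval is unusually long. After the 194.4 kb interval came 1 of 45.6 kb with Zfp184, a zinc finger gene. The next, of 54.5 kb, held Pom121l2 and Prss16, a thymic serine protease gene. Neither of these held a histone gene. The last, 22.3 kb between 22028750 and 22051250, held the 5 genes from H2ac12 to H2bc11 and again no other protein-coding gene. H2ac12 lay 6277 bp and H2bc11 7449 bp from the peaks that bracket them.

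The long interval holds repeated sequence. Of 264 words of 37 bases, the read length in the labels, in each 300-base promoter window, more than 50% recurred in the window of another member that does not overlap it for 10 of 61 members. Of these 10, 6 lie in the interval from H4c11 to H4bc24. H2bc23 and H4bc24 shared 264 of 264 words, and H4c17 and H4c18 249 of 264. H2ac23 had 89.0% and H2ac24 74.6% of its words elsewhere. The other 4 were in Hist2: H3c14 and H3c15 shared 212 words, and H2ac18 and H2ac19 183. In the second Hist1 cluster, 0 of 28 windows passed 50%. Reads from such copies may have been placed in either or discarded. Whether this bears on the length of the interval without a listed peak was not tested, and only promoter windows were searched.

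The second Hist1 cluster was divided into 8 intervals. The first, 73.4 kb from 23524749 to 23598330, held the 14 genes from H4c8 to H4c4 without a peak between them. An interval of 32.6 kb held H2bc6 and the linker histone gene H1f4, and the next, 66.7 kb, held H2ac6, H2bc4 and H1f6. H4c3 stood alone in 3.84 kb between the peaks at 23697474 to 23697666 and 23701317 to 23701504. The interval after it, 31.2 kb, held Hfe, whose product regulates iron uptake, and no histone gene, and its first peak lay 624 bp from Hfe. The 9 genes from H1f2 to H1f1 shared 60.0 kb with Trim38, and a peak of 223 bp at 23792570 to 23792792 lay 950 bp beyond Trim38. Slc17a2, an anion transporter gene, had an interval of 40.6 kb without histone genes. H2bc1 and H2ac1 lay in 279.9 kb with Slc17a3, Slc17a1, Slc17a4 and Scgn, and 8.36% of all intervals were as long.

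Hist2 lay whole in 1 interval of 101.6 kb, with the synaptic vesicle gene Sv2a and with Bola1, and 23.5% of all intervals were as long. The 3 Hist3 genes lay in 26.8 kb with the ring finger gene Rnf187, ended by the peak in H2aw. Over all 4 clusters, 11 intervals held members, and 7 of them, with 44 of the 68 clustered members, held no other protein-coding gene.

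**Figure D4:**
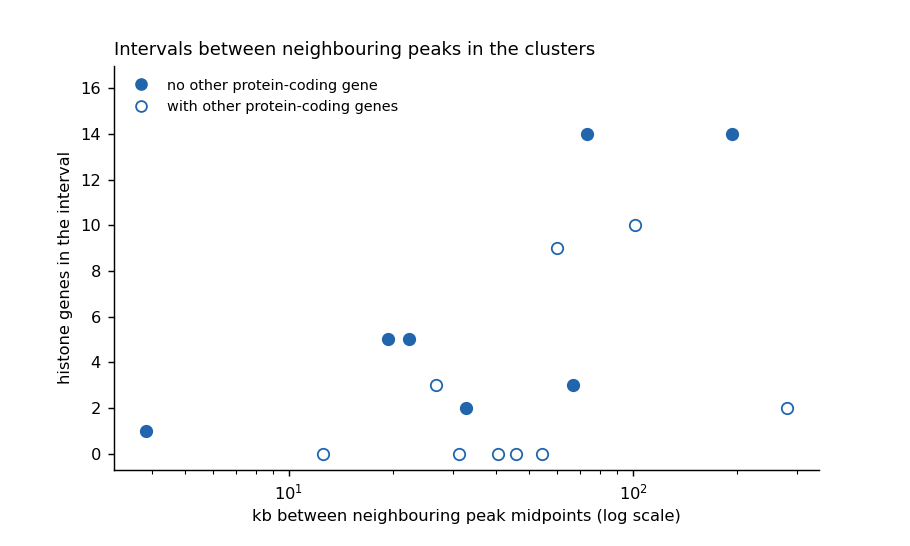
Number of histone genes, by gene midpoint, in each of the 16 intervals between neighbouring CTCF peaks that touch the clusters, against the length of the interval in kb on a log scale; open circles hold other protein-coding genes. Intervals with 14 histone genes measured 73.4 and 194.4 kb and held no other protein-coding gene.

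Peaks inside the clusters were narrow. In the flanks the 16 widths ran from 186 to 673 bp with a median of 277.5 bp, and 6 were narrower than the median of all peaks, 262 bp, under which 50% of all peaks lie. Inside, the 12 widths ran from 177 to 312 bp with a median of 198 bp, and 11 were narrower than 262 bp. No test was made of this difference. The flank widths rest in large part on Hist3 on chromosome 11, with 3 flank peaks on its left and 4 on its right. Those were 214 to 520 bp wide, and all but the one of 214 bp were wider than 262 bp. Of the 12 inside peaks, 11 lay in the Hist1 clusters on chromosome 13, so over all 4 clusters zone and chromosome are mixed. On chromosome 13 alone there were 5 flank peaks. Those of 270, 285 and 287 bp were wider than 262 bp, and those of 205 and 226 bp were narrower. All inside peaks on that chromosome but the one of 312 bp were narrower than 262 bp. These few peaks were not tested either. Both peaks of 500 bp or more were in flanks, by Fcgr1 and, at 58916709 to 58917228, by the butyrophilin-like gene Btnl10. Such peaks make up 4.05% of the list. The widths of the flanks and the insides overlapped between 186 and 312 bp. The inside peak of 312 bp, at 21974201 to 21974512, was 60.8 kb from the nearest histone gene.

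**Figure D5:**
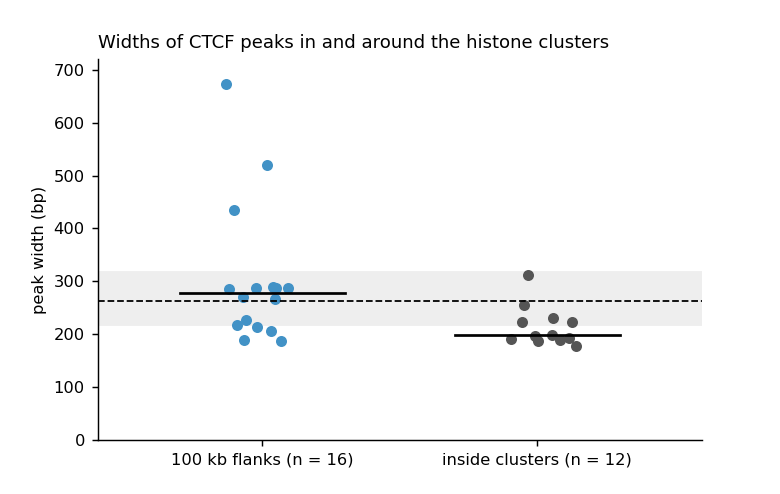
Widths in bp of the 16 peaks in the 100 kb flanks and the 12 peaks inside the clusters, with bars at the medians of 277.5 and 198 bp; the dashed line and band give the median and quartiles of all peaks (262, 217 and 317 bp). Of the inside peaks, 11 of 12 lie below the dashed line.

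Genes for tRNAs, which RNA polymerase III transcribes, also lie at the Hist1 genes, and several peaks stood beside them. The first Hist1 cluster holds 31, the second holds 0 and has 26 in its flanks. Of the 28 peaks in the clusters and flanks, 6 had their midpoint within 1 kb of a tRNA gene, against 0.171% of all peaks. They were 5 of the 7 peaks of the first Hist1 cluster and its flanks and 1 of the 9 of the second. The peak beyond H2bc11 lay 340 bp from n-TSgct5, and that before H2ac12 378 bp from n-TIaat7. The clusters and flanks hold 66 of all 403 tRNA genes, so peaks here have more of them nearby than most peaks do. Seen from the tRNA genes, 7 of the 66 had a peak within 1 kb, a share similar to the 11.7% of all 403. The tRNA genes have many similar copies too, and the part of mapping in these peaks was not tested.

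Genes that act on the histone genes lie elsewhere and were described from a list of 22 genes of histone transcription and mRNA 3′ processing. A peak within 1 kb of an end was found at 6 of 22, 27.3%, against 8.3% of all genes and 12% of protein-coding genes. With only 22 listed genes this share is a loose estimate, and its difference from the others was not tested. In the body or within 10 kb a peak was found at 13, 59.1%, against 36.2% of all genes and 50.8% of protein-coding genes. By that count the list stood near the protein-coding share. The 6 with an end peak were Slbp, whose product binds the histone mRNA stem-loop, and Lsm10 and Lsm11, proteins of the U7 small nuclear RNP. With them were Rnu7, the U7 RNA itself, Sympk, a scaffold of the processing complex, and Pou2f1, whose product binds the octamer of H2B promoters. Sympk had 3 peaks in the body or within 10 kb, Rnu7 3, Lsm11 2 and the others 1 each. Npat, the co-activator of the histone locus body, had its nearest peak 19.3 kb away and Casp8ap2 28.7 kb away. Of 13 other histone genes outside the clusters, most of them for variant histones, 0 had an end peak by this rule. A peak lay in the body of 5 (H2az1, H2az2, Macroh2a2, H3f3a and H3f3b), against 17.2% of all genes and 29.5% of protein-coding genes. The 13 include H4f16, a core H4 gene on chromosome 6, whose nearest peak was 43.6 kb away. Within 10 kb or in the body 7 of these 13 had a peak, 53.8%, against 50.8% of protein-coding genes.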

How the data were processed

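CTCF libraries came from NIH3T3 cells with and without induction of CDX2. The deposited file gives, per its values, chromosome, start and end of peak intervals, with no header; its unit is a position, another kind of value than counts or signal, and it carries no height, score or sample. STAR, Picard, MACS2 and the builds mm10 and dm6 are named in the submitters' processing notes. What each did, the peak threshold, the treatment of reads with several matches and the use of the Drosophila spike-in were not given in the sources used here. Depth is unknown.

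Of 22756 intervals, 22755 on chromosomes 1 to 19, X and Y were used, counted from 1 and placed by midpoint. Of 49997 RefSeq genes, 394 were left out: those off these chromosomes or, except on Y, starting below 3 Mb. Strand came from the RefSeq promoter table. Distances run from gene ends to peak midpoints. Counting was checked against simulated intervals.

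The members and lists were chosen with earlier results of these data known. Named are members with a peak at an end or in the body, outermost members, genes nearest to a peak in the clusters or flanks, other genes inside, and list genes with a peak at an end; others are named for their distance and were chosen after seeing values. One gene nearest to flank peaks, and the positions of those peaks, are not reported here; the peaks stay in all counts. Python 3.11.15 with pandas 2.3.3, numpy 2.4.6, scipy 1.17.1 and matplotlib 3.10.9 was used.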

Additional observations from a re-analysis of the deposited data

How the results depend on the processing

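Over 48 recomputed values, 33 stayed within 1.5 times the count or, for the density ratio, within its interval and above 1. Placing peaks by any overlap, merging peaks within 500 bp and taking protein-coding members alone moved no result beyond that. With peaks of median width or more, members with a peak at an end fell to 0, in the body to 0 and within 10 kb to 8. Flank peaks fell to 10, most of them beside Hist3, and inside peaks to 1. The flank to inside density ratio was then 9.86, since most inside peaks are narrow. Ends within 500 bp gave 2 members and within 5 kb 8. Sides of 5 kb gave 9 members and of 20 kb 37. Gaps of at most 50 kb left 6 peaks inside. Flanks of 200 kb turned the density ratio to 0.986, below 1 but within its interval. With 1 span per chromosome it was 2.90, since the 1487 kb between both Hist1 clusters, with 5 peaks, then count as inside. The cause of these densities was not tested. Added after seeing the data, current symbols alone gave 3 members with an end peak and 1 with a body peak, since the Hist3 genes drop out. That choice also gave 8 peaks inside and 12 in the flanks. Without H4bc24, taken in by its older name, the gap from H2ac24 to H2ac12 passes 200 kb and the first Hist1 cluster splits. Leaving out Hist3 gave 9 flank peaks. No paired analysis was possible because no interval is tied to a sample. Peaks of low height or in repeated sequence may be missing from the list, and the depth that would limit them is unknown.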

Other observations

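Between the 2 Hist1 clusters lie 1487 kb of chromosome 13 with 5 peaks, 1 toward the first cluster and 4 toward the second. From 22051107 to 23401850, the midpoints of neighbouring peaks, no peak was listed over 1351 kb, and 0.941% of the intervals between neighbouring peaks were as long. It was picked as the longest interval between the clusters, on a chromosome with few peaks per 100 kb (0.592), so this share does not measure how unusual it is. This stretch held 38 protein-coding genes, of which 36 were Vmn1r pheromone receptor genes, and 12 tRNA genes. The Vmn1r genes are similar copies, and the part of read mapping was not tested.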
